A study of Mus musculus with 6 samples.

Results

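The SLC7 genes described here are 10 amino acid transporter genes, Slc7a1, Slc7a2, Slc7a3, Slc7a5, Slc7a6, Slc7a7, Slc7a8, Slc7a10, Slc7a11 and Slc7a15, out of 53801 genes in the count tables. They were chosen by their symbols from a given list, and Slc7a15 is on it because it was picked from these same tumours for its higher count after sevoflurane priming. Its difference between the groups is therefore given as a description with no test. RNA was sequenced from pieces of B16-F10 tumours, a mouse melanoma line grown under the skin of wild type C57BL/6 mice. The SEVO group of 3 tumours arose from cells primed with the inhaled anaesthetic sevoflurane before injection, and the CTRL group of 3 tumours arose from cells without priming. The labels give the tissue as melanoma and name monocytes as the cell type, and they do not say whether each tumour came from a mouse of its own, so the p-values measure the spread between these tumours only. The injected cells were of a single line, and the host mice kept their own stromal and immune cells, so each library mixes tumour and host RNA. In such bulk samples, fewer cells of a type and less RNA per cell cannot be told apart.

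SLC7 transporters move amino acids across the plasma membrane and fall into a pair of subfamilies. The cationic transporters work alone and carry arginine, lysine and ornithine, while the heteromeric transporters are light chains that reach the surface only when bound by a disulphide bridge to a heavy chain, Slc3a2 (4F2hc) or Slc3a1 (rBAT). In melanoma, large neutral amino acids feed protein synthesis and tyrosine feeds pigment synthesis, and the exchange of glutamate for cystine supplies glutathione. Slc7a15 encodes a light chain that prefers aromatic amino acids in mice and is silenced in humans.

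The sequence before the start of 3 members is shown because several amino acid transporter genes are known targets of Atf4, a factor of the amino acid starvation response that binds the C/EBP-ATF response element. The core of this element, TGATGNAA, was searched on both strands in RefSeq windows of 300 bases (250 before and 50 after each start, GRCm38.p6). Windows existed for 7 of the 10 members, 14 windows in all, and 2 of the 7 members held the core in at least 1 window, against 1219 of 27025 genes over the whole table (4.51%). By window it was 3 of 14, against 1304 of 32851 (3.97%), with 1 match counted in 2 overlapping windows of Slc7a7. The 250 bases before the start are printed on the minus strand, 5′ to 3′, with the core or its reverse complement in capitals, for Slc7a15 at chr12:8599067-8599316, Slc7a11 at chr3:50443614-50443863 and Slc7a7 at chr14:54417703-54417952.
Slc7a15: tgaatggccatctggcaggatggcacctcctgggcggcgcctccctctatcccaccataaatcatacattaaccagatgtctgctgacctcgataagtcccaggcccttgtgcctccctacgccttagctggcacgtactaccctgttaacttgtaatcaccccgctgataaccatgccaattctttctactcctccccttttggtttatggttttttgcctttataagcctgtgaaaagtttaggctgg
Slc7a11: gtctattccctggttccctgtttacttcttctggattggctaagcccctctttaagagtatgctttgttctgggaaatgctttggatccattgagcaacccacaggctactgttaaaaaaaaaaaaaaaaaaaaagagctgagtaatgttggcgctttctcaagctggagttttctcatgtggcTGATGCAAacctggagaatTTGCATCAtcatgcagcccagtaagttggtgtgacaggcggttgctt
Slc7a7: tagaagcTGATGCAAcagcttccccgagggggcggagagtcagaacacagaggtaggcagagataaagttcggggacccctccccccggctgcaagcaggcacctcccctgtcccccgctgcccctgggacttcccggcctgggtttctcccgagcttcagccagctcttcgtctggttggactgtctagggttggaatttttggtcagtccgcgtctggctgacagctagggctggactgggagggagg
Slc7a11 held 2 matches, 66 and 47 bases before its start and on opposite strands, and Slc7a7 held 1 in the stretch shown, 243 bases before its start. Neither window of Slc7a15 held these letters, which says only that they are not in these windows. A match is a description of the letters and not of binding.

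The tumours differed widely in depth of gene counting. Gene counts summed to 723431 (CTRL 2) at the lowest and 1348676 (CTRL 1) at the highest, which was only 2.06% to 4.61% of the uniquely aligned reads, and 19016 (CTRL 2) to 37826 (CTRL 1) genes had a read. The predicted genes Gm10800 and Gm10801 made up from 1.31% (CTRL 2) to 49.0% (CTRL 1) of these sums. Levels are therefore given as raw reads and as CPM, read counts relative to a common library size scaled by the TMM method of edgeR on the 7561 genes that passed its filter on low counts. The scaling factor of CTRL 1 was 0.713 on these genes and 1.18 on all 42423 genes with a read. Fold changes of the members that passed the filter are therefore given from the fits on both sets of genes. Those of other genes that passed it, and the medians of the other gene lists, come from the fit on the 7561 genes. They were not compared between the fits. Most members had fewer than 30 reads in every tumour, and tumours of 1 group differed by more than counting error.

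Slc7a15 (chr12:8528483-8599066, minus strand, GRCm38) was higher in 2 of the 3 SEVO tumours and not in the other one. It had 30, 42 and 46 reads in CTRL 1, 2 and 3, and 109, 147 and 32 reads in SEVO 1, 2 and 3. SEVO 1 and SEVO 2 thus lay above every CTRL tumour, while SEVO 3 lay between CTRL 1 and CTRL 2, and the groups overlapped. On the CPM scale, the values were 36.4, 52.7 and 52.8 in CTRL and 125, 158 and 34.9 in SEVO, so SEVO 3 was the lowest of all 6. The mean was 47.3 ± 9.42 CPM in CTRL and 106 ± 63.6 CPM in SEVO (SD, n = 3 each). On the scale of all genes, CTRL 1 (18.9 CPM) lay below SEVO 3 (32.0 CPM). The log2 fold change of SEVO over CTRL was 1.16 (SE 0.47), and 1.66 (SE 0.61) in the fit on all genes. Without SEVO 3 it was 1.63, and without SEVO 2 it was 0.86.

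**Figure D1:**
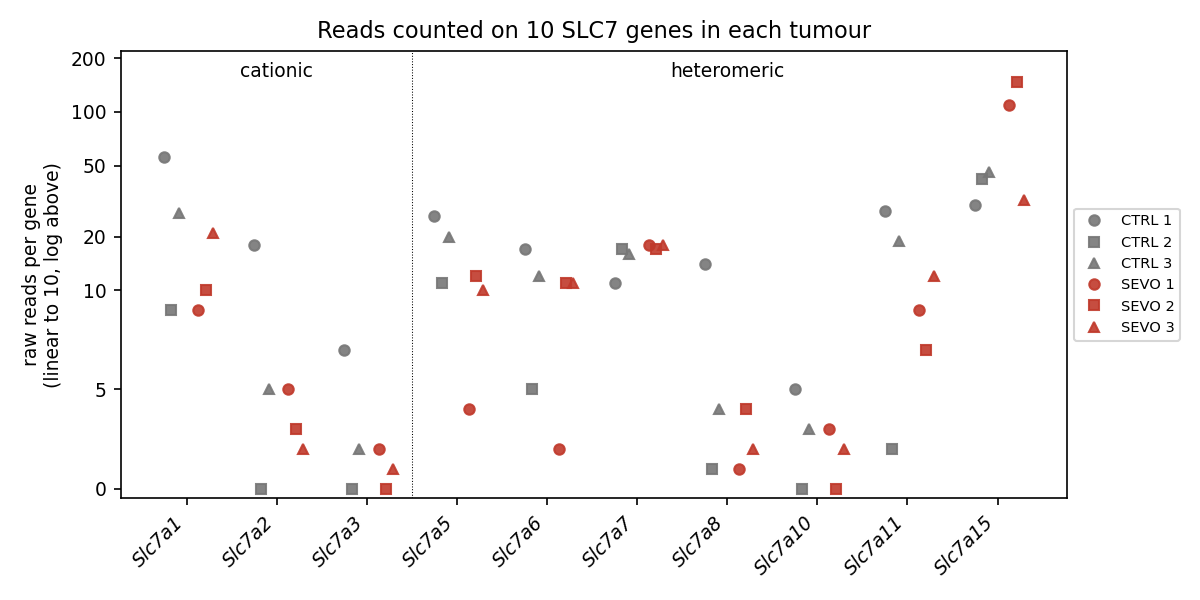
Raw reads on each of the 10 SLC7 genes, 1 point per tumour, on an axis that is linear to 10 reads and logarithmic above, where grey points are CTRL and red points SEVO tumours. Slc7a15 reached 109 and 147 reads in SEVO 1 and 2 and 32 in SEVO 3, while for most other genes CTRL 1 had the most reads.

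Within a tumour, the share of Slc7a15 among the reads on all 10 genes does not depend on the library size. This share was 14.2% (30 of 212 reads, 95% Wilson interval 10.1 to 19.5) in CTRL 1, 48.3% (42 of 87, 38.1 to 58.6) in CTRL 2 and 29.9% (46 of 154, 23.2 to 37.5) in CTRL 3. In the SEVO tumours it was 67.3% (109 of 162, 59.7 to 74.0), 69.7% (147 of 211, 63.2 to 75.5) and 28.8% (32 of 111, 21.2 to 37.9). SEVO 1 and 2 had the highest shares, and SEVO 3 lay beside CTRL 3. The intervals cover counting error only, not the spread between tumours, and since Slc7a15 was picked for its rise in these tumours, the shares are a description.

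The denominator of this share moved as well. The other 9 genes together had 182, 45 and 108 reads in CTRL 1, 2 and 3 and 53, 64 and 79 reads in SEVO 1, 2 and 3. CTRL 1 and CTRL 3, with the most reads on these genes, were also the tumours in which the most genes had a read (37826 and 31950), and CTRL 2 was the lowest in both (45 reads, 19016 genes). The 3 SEVO tumours, with 24276, 23839 and 29626 genes, lay between CTRL 2 and CTRL 3 in both measures. The part of this in the share was not tested.

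**Figure D2:**
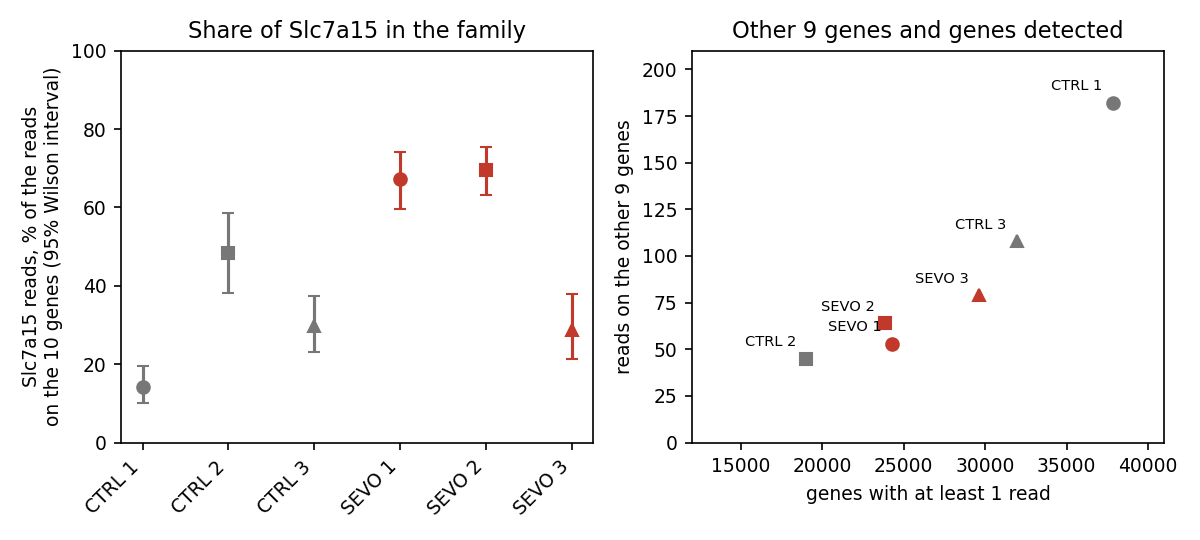
Left, reads on Slc7a15 as a percentage of the reads on all 10 genes in each tumour (grey CTRL, red SEVO), with the 95% Wilson interval. Right, reads on the other 9 genes against the number of genes with at least 1 read, where CTRL 2 is lowest (45 reads) and CTRL 1 highest (182 reads) in both.

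Slc7a15 also stood first when levels were compared per exon length. Its mean over the 6 tumours was 25.6 ± 17.3 CPM per kb of exon (SD), and it was the highest of the 10 genes in each of the 6 tumours, from 11.7 to 52.7 CPM per kb. Slc7a7 came next with 5.61 ± 0.86 CPM per kb (4.03 to 6.43), and these ranges did not overlap. Below it came Slc7a5 (4.35 ± 2.59), Slc7a6 (2.44 ± 1.38) and Slc7a1 (2.23 ± 1.94), then Slc7a10 (1.20), Slc7a11 (1.07), Slc7a8 (1.01), Slc7a2 (0.71) and Slc7a3 (0.62), in the same unit. From Slc7a7 downwards, the range of each gene overlapped that of the next in the order. Within each of the 6 tumours, however, Slc7a5 lay above Slc7a6, for example 8.51 against 4.52 in CTRL 1 and 2.94 against 2.63 in SEVO 3. The other neighbours from Slc7a7 downwards did not keep their order in every tumour. The range of Slc7a7 lay wholly above those of the 5 lowest genes. Slc7a15 had 406 reads in all, and 1577 genes had more. This is an order of counted reads, which were 2.06% to 4.61% of the uniquely aligned reads. The strand setting of the counting is not given in the sources used here, so the order of the transcripts may differ.

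**Figure D3:**
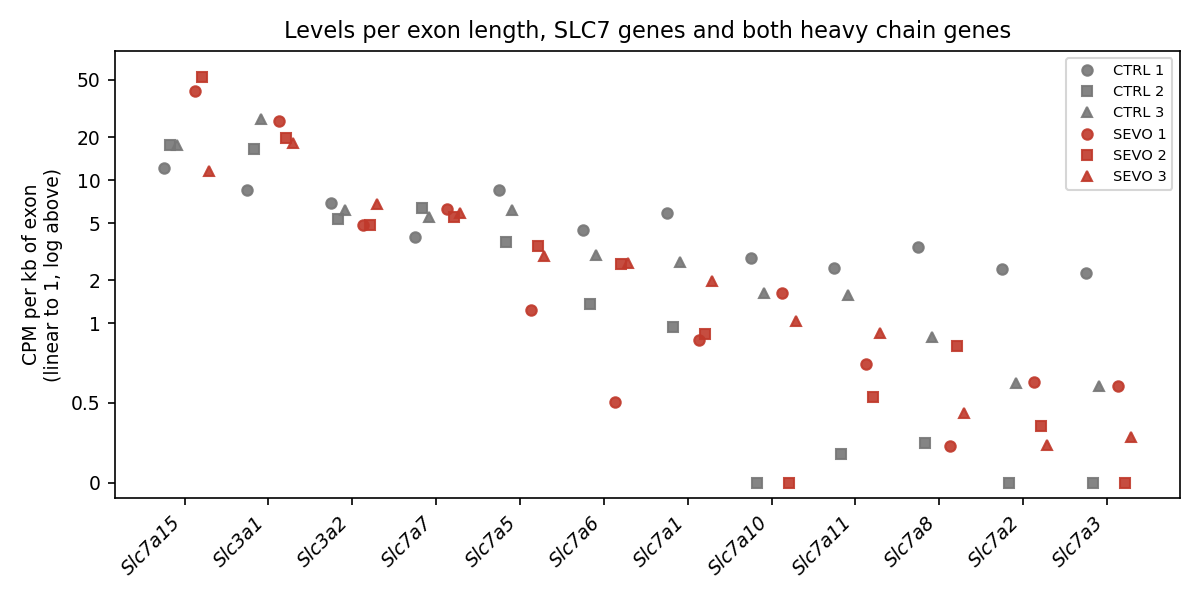
Level of each SLC7 gene and of both heavy chain genes in CPM per kb of exon, 1 point per tumour (grey CTRL, red SEVO), on an axis that is linear to 1 and logarithmic above. Slc7a15 lay between 11.7 and 52.7 CPM per kb and Slc3a1 between 8.55 and 26.8, and the other genes lay lower.

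None of the 9 other genes passed an adjusted p under 0.05 in the quasi-likelihood test of edgeR. Of all 7561 genes tested, 0% passed it, and the lowest adjusted p was 0.741 (edgeR, Benjamini-Hochberg). The Wald test of DESeq2 likewise called 0 of the 9. At an unadjusted p under 0.05 there was 1 of the 9, Slc7a1, and 330 of all tested genes. At the thresholds in the study's methods, an unadjusted p under 0.02 with a linear fold change of at least 1.5, 0 of the 9 passed, beside 0.106% of all genes tested in the higher and 0.939% in the lower direction. Of the 9, 5 passed the filter, and 4 of these had a lower and 1 a higher estimate in SEVO, with a median log2 fold change of −0.91 against −0.02 over all genes tested. In the fit on all genes, 8 of the 9 had a lower estimate with a median of −0.47, against −0.38 over all genes in that fit.

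Of the cationic transporters, Slc7a1 (CAT-1, chr5:148327410-148399904), the general arginine and lysine carrier, was the most counted. It had 56, 9 and 27 reads in CTRL 1, 2 and 3 and 9, 10 and 21 reads in SEVO 1, 2 and 3. CTRL 1 was the highest tumour and CTRL 2 matched SEVO 1, so the groups overlapped. Its log2 fold change was −1.32 (SE 0.61), with an unadjusted p of 0.0495 and an adjusted p of 0.741 in edgeR. It was −0.53 without CTRL 1, and −1.59 without CTRL 2, where the unadjusted p was 0.0028 and the adjusted p 0.080 in edgeR. Many genes moved without CTRL 2: 1449 of 8961 genes tested passed the thresholds in the study's methods, and 31 an adjusted p under 0.05. In the fit on all genes with a read, the estimate of Slc7a1 was −0.66 (SE 0.56).

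Slc7a2 (CAT-2), an arginine carrier known from activated macrophages, had 18, 0 and 5 reads in CTRL against 5, 3 and 2 in SEVO. Gm26584 exons on the opposite strand cover 635 of its 9135 exon bases, and Gm26584 had 3, 10 and 3 reads against 1, 0 and 3. Slc7a3 (CAT-3), best known from the brain, had 7, 0 and 2 reads against 2, 0 and 1. Neither carrier passed the filter, and in the fit on all genes the log2 fold changes of Slc7a2 and Slc7a3 were −0.47 (SE 0.89) and −0.86 (SE 1.35). CTRL 1 held 18 of the 33 reads on Slc7a2 and 7 of the 12 on Slc7a3. Without CTRL 1, both estimates turned positive, to 0.60 and 0.15. A difference in these genes was not detectable at this depth.

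Among the heteromeric light chains, Slc7a5 (LAT1, chr8:121881150-121907694), the carrier of leucine, phenylalanine and other large neutral amino acids, had a lower CPM in every SEVO tumour. It had 26, 11 and 20 reads in the CTRL and 4, 12 and 10 reads in the SEVO tumours, so the reads overlapped between SEVO 2 and CTRL 2. In CPM, the values were 31.6, 13.8 and 23.0 against 4.60, 12.9 and 10.9, and every SEVO tumour lay below every CTRL tumour, with SEVO 2 and CTRL 2 close together. No other member had groups that did not overlap in CPM, and over all genes tested 4.39% had every SEVO tumour below and 4.17% had every SEVO tumour above the CTRL tumours. On the scale of all genes, SEVO 2 (15.3 CPM) lay above CTRL 2 (14.8 CPM). The log2 fold change was −1.25 (SE 0.59), with an edgeR adjusted p of 0.741, and −0.68 (SE 0.61) in the fit on all genes. Slc7a8 (LAT2), a carrier of neutral amino acids, had 14, 1 and 4 reads against 1, 4 and 2, and a log2 fold change of −0.79 (SE 1.00) in the fit on all genes.

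Slc7a7 (y+LAT1) and Slc7a6 (y+LAT2) exchange cationic for neutral amino acids, and Slc7a7 is the gene mutated in lysinuric protein intolerance. Slc7a7 was the most even member, with 11, 17 and 16 reads in CTRL 1, 2 and 3 against 18, 17 and 18 in SEVO 1, 2 and 3. This gave 17.7 ± 4.03 CPM in CTRL and 19.5 ± 1.24 CPM in SEVO (SD, n = 3 each), and a log2 fold change of 0.14 (SE 0.48, edgeR adjusted p 0.911), which was 0.58 (SE 0.57) in the fit on all genes and turned to −0.033 among genes with at least 10 reads in every tumour. It did not follow the number of genes with reads, since CTRL 1, the highest tumour for most members, was its lowest. Oxa1l exons on the opposite strand cover 232 of its 3315 exon bases, and Oxa1l had 17, 28 and 27 reads against 19, 24 and 29. Slc7a6 had 17, 5 and 12 reads in the CTRL and 2, 11 and 11 in the SEVO tumours, and a log2 fold change of −0.63 (SE 0.73, edgeR adjusted p 0.789), against −0.05 (SE 0.68) in the fit on all genes.

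Slc7a11 (xCT, chr3:49892526-50443614) imports cystine in exchange for glutamate. It had 28, 2 and 19 reads in the CTRL and 9, 7 and 12 in the SEVO tumours. CTRL 1 and CTRL 3 were above and CTRL 2 below all SEVO tumours, so the SEVO values lay inside the CTRL range, and the log2 fold change was −0.91 (SE 0.74, edgeR adjusted p 0.748), against −0.24 (SE 0.62) in the fit on all genes. Slc7a10 (Asc-1), a carrier of small neutral amino acids such as serine, had 5, 0 and 3 reads against 3, 0 and 2, and a log2 fold change of −0.09 (SE 1.21) in the fit on all genes. Lrp3 exons on the opposite strand cover 377 of its 2111 exon bases, and Lrp3 had 9, 0 and 1 reads against 1, 2 and 1. Of the SLC7 genes that are not among the 10, Slc7a4, Slc7a9, Slc7a12, Slc7a13 and Slc7a14, 0 of 5 passed the filter.

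**Figure D4:**
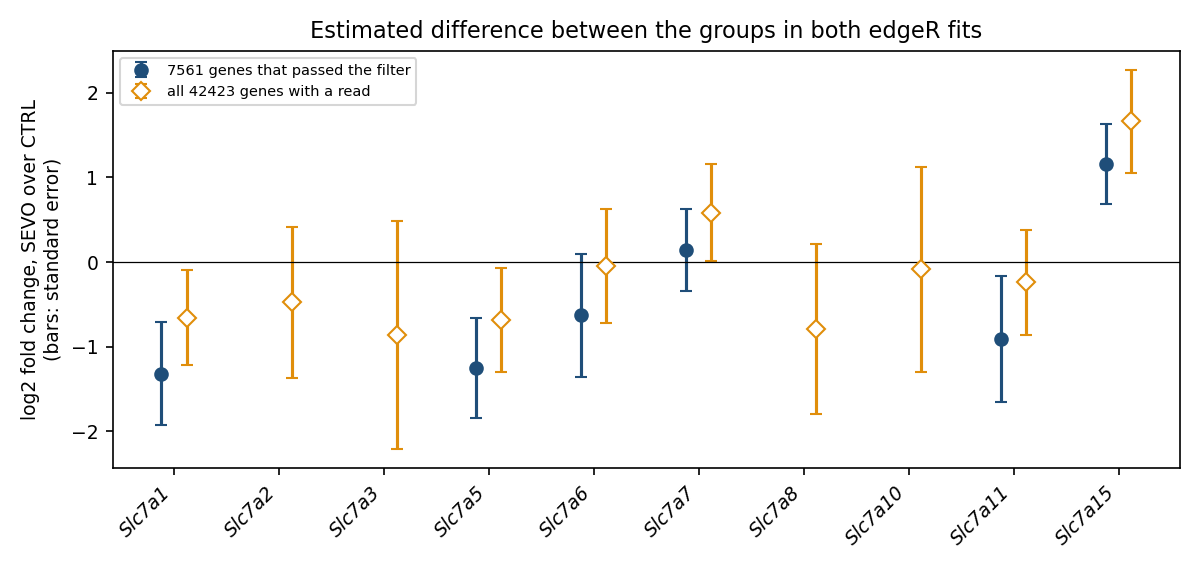
Log2 fold change of SEVO over CTRL with its standard error for each gene, in the fit on the 7561 genes that passed the filter (blue) and on all 42423 genes with a read (orange). Slc7a15, shown without a test because it was picked for this difference, lies at 1.16 and 1.66, and Slc7a1 moves from −1.32 to −0.66 between the fits.

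Both heavy chain genes were counted in every tumour, and for both the groups overlapped. Slc3a1, the heavy chain best known from kidney and intestine, had 16, 30 and 53 reads in the CTRL and 51, 42 and 38 in the SEVO tumours, and a log2 fold change of 0.29 (SE 0.41, edgeR adjusted p 0.807). Prepl exons on the opposite strand cover 601 of its 2271 exon bases, so without a stated strand setting these reads could belong to either gene. Slc3a2, the partner of Slc7a5 and Slc7a11, had 20, 15 and 19 reads against 15, 16 and 22, and a log2 fold change of −0.15 (SE 0.46, edgeR adjusted p 0.8998). Per exon length, Slc3a1 (19.3 ± 6.68 CPM per kb) stood above Slc3a2 (5.82 ± 0.92 CPM per kb), and its range overlapped that of Slc7a15.

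Of the SEVO tumours, SEVO 3 had the least Slc7a15 and the highest summed level of the melanocyte genes. Between SEVO 1 and SEVO 2 there was no such opposition, and both values were higher in SEVO 2. The summed CPM of 11 genes of the pigment cell lineage, all of them counted, was 1373, 1389 and 1347 in CTRL 1, 2 and 3 and 657, 778 and 1779 in SEVO 1, 2 and 3. SEVO 1 and SEVO 2, the tumours with the most Slc7a15, were thus the lowest. SEVO 3 was the highest, and had the least Slc7a15 on this CPM scale. On the scale of all genes, Slc7a15 was lower in CTRL 1 (18.9 CPM) than in SEVO 3 (32.0 CPM), as it was in raw reads (30 against 32). The melanocyte sums were not computed on the scale of all genes, where the scaling factor of CTRL 1 was 1.18 in place of 0.713. Their order, with the place of CTRL 1 in it, may differ there. Of the 11 genes, 10 passed the filter, 0 had an adjusted p under 0.05 in edgeR and all 10 had a lower estimate in SEVO, with a median log2 fold change of −0.43. The median over all genes tested was −0.02. Single genes differed from the sum. In CPM, SEVO 3 was the highest tumour for Mitf, Tyrp1, Dct, Pmel, Mlana and Sox10, but not for Tyr, Slc45a2, Trpm1, Gpr143 and Rab27a. Rab27a in SEVO 3 (16.4 CPM) lay below every CTRL tumour, and Sox10 in SEVO 2 (30.0 CPM) above every CTRL tumour. Dct and Pmel, enzyme and scaffold of pigment synthesis, had 206 and 134 reads in SEVO 1 but 619 and 302 in SEVO 3. Their part in the result on Slc7a15 was not tested.

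Markers of monocytes and macrophages, the cell type the labels name, were few. The summed CPM of 14 genes was 220, 289 and 239 in the CTRL and 327, 282 and 234 in the SEVO tumours, and 2 of the 14 passed the filter. Most of it was Csf1r, the receptor for colony stimulating factor, with 88, 209 and 165 reads against 257, 242 and 176. C1qa, C1qb, C1qc, Cd14 and Lyz2, which are abundant in macrophages, had between 0 and 4 reads in each tumour, and no marker was at 0 in all tumours. The summed CPM of the T and NK cell (8.78 to 109), endothelial (37.6 to 229), fibroblast (20.4 to 176), keratinocyte (2.51 to 83.8), adipocyte (2.51 to 78.9) and skeletal muscle genes (1.25 to 64.3) was highest in CTRL 1, as was that of most SLC7 genes. Their part was not tested.

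**Figure D5:**
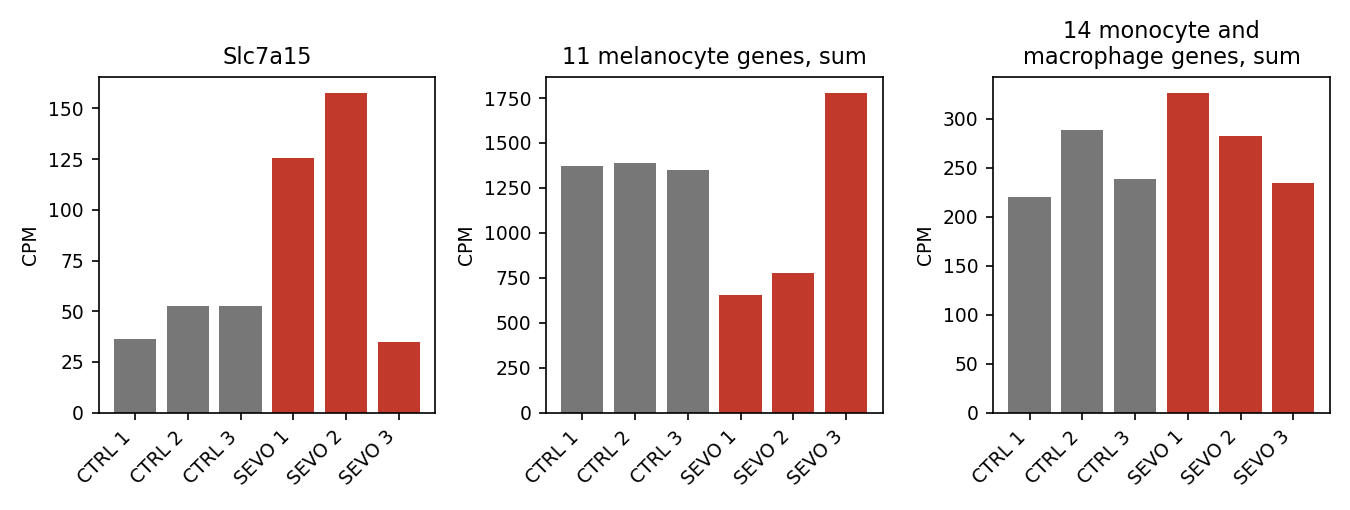
CPM of Slc7a15 (left), summed CPM of 11 melanocyte genes (middle) and of 14 monocyte and macrophage genes (right), with 1 bar per tumour (grey CTRL, red SEVO). SEVO 1 and 2 have the highest Slc7a15 (125 and 158) and the lowest melanocyte sums (657 and 778), and SEVO 3 has the lowest Slc7a15 (34.9) and the highest melanocyte sum (1779). In raw reads, CTRL 1 has fewer on Slc7a15 (30) than SEVO 3 (32).

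None of the tested genes around Slc7a15 had SEVO 1 and 2 as its highest and SEVO 3 as its lowest tumour. Of 13 genes within 250 kb, 3 passed the filter. Gm48898 had 6, 37 and 48 reads in the CTRL and 39, 60 and 53 in the SEVO tumours, with a log2 fold change of 0.62 (SE 0.52). Gm48071 had 20, 17 and 15 reads against 23, 28 and 26, with a log2 fold change of 0.43 (SE 0.41, edgeR adjusted p 0.767). It alone of these 3 was above CTRL in every SEVO tumour, SEVO 3 included, as were 4.17% of all genes tested. Pum2, a repressor of messenger RNA translation, had 39, 21 and 31 reads against 16, 17 and 32, with a log2 fold change of −0.61 (SE 0.43). The antisense gene 5033421B08Rik overlaps the body of Slc7a15 with 0 bases on its exons and had 0 to 3 reads in each tumour.

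Across the 6 tumours, the genes most like Slc7a15 by Pearson's r of log2 CPM, among genes that passed the filter, were Gm20275 (0.980), Gm47123 (0.979), Gm10701 (0.977), Edaradd (0.970) and Gm20089 (0.968). These correlations rest on 6 tumours that share 1 scaling, and are given as a description. Gm47123 had 13, 16 and 15 reads in the CTRL and 39, 43 and 15 in the SEVO tumours, and Edaradd, an adaptor of the ectodysplasin receptor, had 30, 28 and 37 against 55, 75 and 27, so in both of them SEVO 1 and 2 stood out and SEVO 3 did not. The other 4 of the 5, Edaradd aside, are annotated as antisense genes. All 1742 exon bases of Gm47123 lie opposite exons of Ctsl, which had 17, 5 and 16 reads against 5, 7 and 12, and the strand setting of the counting is not given in the sources used here.

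Of the 8 tested genes of the amino acid response, 1, Ddit3, was above CTRL in every SEVO tumour, beside 4.17% of all genes tested. Ddit3 (CHOP), a target of Atf4, had 65, 96 and 80 reads in the CTRL and 127, 150 and 115 in the SEVO tumours, so the groups did not overlap in reads or CPM. Its level was 97.0 ± 21.2 CPM in CTRL and 144 ± 17.8 CPM in SEVO (SD, n = 3 each), with a log2 fold change of 0.57 (SE 0.32, edgeR adjusted p 0.741). Unlike Slc7a15, it was also high in SEVO 3. Of the 23 genes of this list, 8 passed the filter, 3 with a higher and 5 with a lower estimate, with a median log2 fold change of −0.16 (0.078 when scaled by library size only). For genes that did not pass the filter, the share over all such genes was not computed. Of the 15 such genes of this list, 5 lay below CTRL in CPM in every SEVO tumour. These were Chac1, Psat1 and Shmt2, whose reads overlapped, and Atf5 (11, 9 and 10 reads against 7, 4 and 6) and Trib3 (9, 4 and 4 against 1, 3 and 3), named after their values were seen. Aldh18a1 (−0.61, SE 0.64), for proline synthesis, and Mthfd2 (−0.57, SE 0.61), of mitochondrial folate metabolism, had lower estimates. Slc7a11, whose window holds the core of the response element printed above, had 9, 7 and 12 reads in the SEVO tumours and did not share the pattern of Ddit3.

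Most of the other amino acid transporters that could be tested had a lower estimate in SEVO. Of 26 genes, 13 passed the filter, 3 with a higher and 10 with a lower estimate in SEVO, with a median log2 fold change of −0.52. Over all 7561 genes tested, 3863 had a lower estimate and the median was −0.02. The lowest p-values belonged to Slc6a17 (−1.47, SE 0.71), a neutral amino acid carrier of synaptic vesicles, Slc6a6 (−1.36, SE 0.68), the taurine transporter, and Slc38a2 (−1.02, SE 0.55), the glutamine carrier SNAT2, each with an edgeR adjusted p of 0.741. Slc38a2 had 50, 11 and 36 reads against 8, 21 and 23, so its groups overlapped. CTRL 1 had the most reads on Slc38a2, and also on Slc6a6 (66) and Slc6a17 (28). Ctns, the lysosomal cystine exporter, and Slc36a1, a lysosomal carrier, had every SEVO tumour below every CTRL tumour in CPM (2 of the 13 tested, beside 4.39% of all genes tested), as had Slc1a2 and Slc38a5, which did not pass the filter. These 4 were named after their values were seen, and Slc1a2 and Slc38a5 were 2 of the 13 that failed the filter. The share over all genes that failed it was not computed. No gene of the list passed an adjusted p under 0.05.

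The genes that sense amino acids for mTORC1 had 19 of 32 genes past the filter, 4 with a higher and 15 with a lower estimate, and a median log2 fold change of −0.52. Over all 7561 genes tested, 3863 had a lower estimate and the median was −0.02. Fnip1, a partner of folliculin, had 22, 15 and 17 reads in the CTRL and 2, 10 and 9 in the SEVO tumours, and its groups did not overlap, which held for 1 of the 19 tested genes, near the 4.39% of all genes tested that were lower in every SEVO tumour. Rheb, Rraga and Flcn, 3 of the 13 genes that did not pass the filter, also had groups apart in CPM, with overlapping reads. They were named after their values were seen, and the share over all genes that failed the filter was not computed. The log2 fold change of Fnip1 was −1.48 (SE 0.63, edgeR unadjusted p 0.0354, adjusted p 0.741). Depdc5 (−1.52, SE 0.81) and Wdr59 (−1.18, SE 0.66), members of the GATOR complexes, followed, and CTRL 1 held 53 and 31 of their reads. Of the arginine and polyamine genes, 6 of 18 passed the filter, 3 in each direction, with a median of −0.21 (0.084 when scaled by library size only). Azin1 (−1.17, SE 0.60), the antizyme inhibitor, Oat (−1.01, SE 0.57), ornithine aminotransferase, and Asl (−0.64, SE 0.68), which makes arginine, had the lowest p-values, and only Oat, with 15, 20 and 17 reads against 10, 5 and 13, had groups that did not overlap (1 of the 6 tested).

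The glutathione and cystine genes had 7 of 20 genes past the filter, 3 with a higher and 4 with a lower estimate, and a median log2 fold change of −0.08 (0.19 when scaled by library size only). Txnrd1, thioredoxin reductase, had 27, 20 and 22 reads in the CTRL and 9, 9 and 26 in the SEVO tumours (−0.77, SE 0.52), so SEVO 3 again lay apart from SEVO 1 and 2. Cd44, a surface protein that stabilises xCT, had 48, 27 and 42 reads against 8, 23 and 45 (−0.75, SE 0.50), and Nfe2l2 (NRF2), the factor of the antioxidant response, had 16, 11 and 7 against 10, 8 and 8 (−0.51, SE 0.61). No gene in these lists or the heavy chains passed an adjusted p under 0.05 in edgeR, or the thresholds in the study's methods.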

How the data were processed

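Total RNA of 6 tumours was sequenced. The authors trimmed reads with Trimmomatic (0.36), removed ribosomal RNA, aligned to GRCm38.p6 with STAR (2.6.0c), used SAMtools (1.8.3) and deposited raw read counts per gene from HTSeq (0.9.1), without normalization. The submitters' processing notes and the study's methods name these steps. The strand setting is not given in the sources used here. Groups and replicate numbers came from the labels. Of 53801 gene IDs, 53706 matched GENCODE M21 of the same build, which gave names, positions and exon lengths, so lengths may differ slightly from the authors' annotation.

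Counts were tested with the quasi-likelihood test of edgeR (4.0.16, R 4.3.3) after filterByExpr and TMM, with Benjamini-Hochberg adjustment over 7561 genes. Genes that failed the filter took their values from the same fit on 42423 genes. Standard errors came from the F statistic. The script was tested on simulated counts. Alternatives were DESeq2 (1.42.0), other scalings, filters, a replicate block, removal of Gm10800 and Gm10801, and each tumour left out. Slc7a15 was left without a test. Columns of reads on no gene were left out of the library sizes, and made up 95.4% to 97.9% of unique alignments.

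The members and gene lists were chosen with earlier results of these data known. Named genes were the 10 members, the heavy chains, the 3 genes of lowest p in each list, overlapping genes, neighbours of Slc7a15 that passed the filter, and the 5 genes most like it by r with a prior count of 2. Of the genes that overlap the body of a member, those that share exon bases with it and 5033421B08Rik were named. Replicates of 1 group differed by more than sampling noise (chi-squared per gene 4.35 to 51.6). With 3 tumours in each group, the smallest two-sided p of an exact permutation test is 0.1.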

Additional observations from a re-analysis of the deposited data

How the results depend on the processing

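Slc7a15 had a higher estimate in SEVO under each of the 13 alternatives, with a log2 fold change from 0.86 (without SEVO 2) to 1.63 (without SEVO 3) when 1 tumour was left out. Since Slc7a15 was picked for its rise in these same tumours, a higher estimate under each alternative is a description and adds no support. With an adjusted p under 0.05, 0 of the other 9 genes were called under every alternative. At the thresholds in the study's methods the count was 0, and 0 to 1 with 1 tumour left out. The 1 was Slc7a1, without CTRL 2, where 1449 of all 8961 genes tested passed them. Over all genes these thresholds gave 79 genes (8 higher, 71 lower), and 266 with no filter (100 higher, 166 lower), 49 with DESeq2 (26 higher, 23 lower), 60 with the library size only (24 higher, 36 lower), 129 with the replicate block, and 13 (without SEVO 1) to 1449 (without CTRL 2) with 1 tumour left out, beside 479 without SEVO 3. At an adjusted p under 0.05, 0 genes became 1 with the replicate block and 0 to 31 with 1 tumour left out, 31 without CTRL 2. The cause was not tested.

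Slc7a7 turned to −0.033 with at least 10 reads in every tumour, and Slc7a10 to 0.0096 with the replicate block. With 1 tumour left out, the estimates ran from −1.73 to −0.53 for Slc7a1, −0.99 to 0.60 for Slc7a2, −1.88 to 0.15 for Slc7a3, −1.44 to −0.84 for Slc7a5, −0.87 to −0.09 for Slc7a6, −0.020 to 0.43 for Slc7a7, −1.44 to 0.018 for Slc7a8, −0.93 to 0.46 for Slc7a10 and −1.27 to −0.25 for Slc7a11. With the library size only, the median of all genes moved from −0.02 to 0.22, that of the amino acid response genes from −0.16 to 0.078, that of the arginine and polyamine genes from −0.21 to 0.084, that of the glutathione and cystine genes from −0.08 to 0.19, that of the mTORC1 sensing genes from −0.52 to −0.15, that of the other amino acid transporters from −0.52 to −0.26 and that of the heavy chains from 0.07 to 0.32. The 5 genes most like Slc7a15 were the same with a prior count of 0.5. Same-numbered tumours did not pair: the deviations of CTRL and SEVO tumours 1, 2 and 3 correlated by −0.40, 0.32 and 0.08, and the replicate block changed no call among the other 9 genes. Where a left-out tumour leaves 2 in its group, the spread is pooled over both groups.

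Depth is a limit beside the spread between tumours and the scaling: the 4 members that failed the filter had 0 to 18 reads in each tumour. The strand setting of the counting is not given in the sources used here.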
